A study of Mus musculus with 2 samples.

Results

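The genes described here are 10 repressors and outputs of the circadian clock, Per1, Per2, Per3, Cry1, Cry2, Nr1d1, Nr1d2, Dbp, Bhlhe40 and Nfil3, out of 21774 protein-coding mouse genes. The genes were chosen by name with the peaks of this study already known, so they were selected on the called peaks near them, their folds included. A peak was counted for a gene when its summit lay inside the gene or within 50 kb of it. Of the 10 genes, 7 had such a summit and 3 had none, with 23 summits among the 3738 peaks of the list. The peaks come from HT22, an immortalised mouse hippocampal cell line. Chromatin from a wild-type HT22 clone was precipitated with an antibody to KMT2D (Millipore ABE1867) and set against input chromatin, taken with no antibody from a wild-type HT22 clone, with 1 library of each kind and cells at 70% confluency in both. Cells lacking the SET domain of KMT2D are also part of the study and are not analysed here. The labels name no synchronisation of the cells and no time of day. With no replicates, no difference between peaks could be tested against the spread between samples, and the list holds no expression values, so the cell line was not checked against marker genes.

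KMT2D is a histone methyltransferase that acts on lysine 4 of histone H3, mostly at enhancers and promoters. The circadian clock is a loop of transcription in which CLOCK and BMAL1 bind E-boxes and switch on the Per and Cry genes, whose proteins return to the nucleus and repress CLOCK and BMAL1. A further loop runs through the nuclear receptors REV-ERB alpha and beta, encoded by Nr1d1 and Nr1d2, which compete with ROR proteins and repress Arntl, the gene of BMAL1. DBP activates genes through D-boxes, NFIL3 represses them there, and BHLHE40, also called DEC1, represses at E-boxes.

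The promoters of genes with a peak close to the start, and of Cry1 and Per3, which had none, are shown first, because the summits are placed against them. Each sequence is the RefSeq one of build GRCm38.p6, from 250 bases before the start to 50 after it, in the direction of the gene. Capitals mark clock elements found on either strand: the E-box CACGTG, its variant CACGTT, the D-box TTATGTAA or TTACGTAA, and the REV-ERB and ROR site TAGGTCA or TGGGTCA. RefSeq promoters were matched for 8 of the 10 genes, and the tables gave none for Per2 and Bhlhe40.
Nr1d2 promoter, chr14:18239057-18239356, minus strand: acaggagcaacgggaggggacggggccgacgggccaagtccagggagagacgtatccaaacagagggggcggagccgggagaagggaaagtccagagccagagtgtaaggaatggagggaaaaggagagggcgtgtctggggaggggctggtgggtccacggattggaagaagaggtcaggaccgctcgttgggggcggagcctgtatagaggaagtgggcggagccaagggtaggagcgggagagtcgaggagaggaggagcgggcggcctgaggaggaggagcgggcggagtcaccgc
Nr1d1 promoter, chr11:98775328-98775627, minus strand: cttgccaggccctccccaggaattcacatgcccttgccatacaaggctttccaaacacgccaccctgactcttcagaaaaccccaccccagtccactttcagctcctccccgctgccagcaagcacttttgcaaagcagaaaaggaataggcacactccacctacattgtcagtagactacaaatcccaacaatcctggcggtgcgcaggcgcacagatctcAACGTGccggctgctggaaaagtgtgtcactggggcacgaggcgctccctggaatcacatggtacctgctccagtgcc
Per1 promoter, chr11:69098699-69098998, plus strand: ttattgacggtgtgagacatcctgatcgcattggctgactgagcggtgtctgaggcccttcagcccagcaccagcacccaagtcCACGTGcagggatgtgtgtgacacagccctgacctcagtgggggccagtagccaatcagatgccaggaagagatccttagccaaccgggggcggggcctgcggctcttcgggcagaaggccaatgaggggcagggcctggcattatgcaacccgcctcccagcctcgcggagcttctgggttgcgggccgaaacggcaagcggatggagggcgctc
Dbp promoter, chr7:45704997-45705296, plus strand: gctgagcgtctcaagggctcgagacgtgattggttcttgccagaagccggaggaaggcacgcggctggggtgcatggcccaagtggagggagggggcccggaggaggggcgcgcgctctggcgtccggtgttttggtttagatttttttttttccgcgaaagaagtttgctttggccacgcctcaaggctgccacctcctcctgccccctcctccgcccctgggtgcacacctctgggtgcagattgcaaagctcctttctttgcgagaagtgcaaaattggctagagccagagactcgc
Nfil3 promoter, chr13:52980990-52981289, minus strand: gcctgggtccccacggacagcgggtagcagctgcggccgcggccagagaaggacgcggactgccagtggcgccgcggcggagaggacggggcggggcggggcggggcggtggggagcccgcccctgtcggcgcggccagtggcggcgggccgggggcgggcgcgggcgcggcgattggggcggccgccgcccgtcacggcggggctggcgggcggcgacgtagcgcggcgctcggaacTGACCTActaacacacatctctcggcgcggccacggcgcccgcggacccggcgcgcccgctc
Cry1 promoter, chr10:85185005-85185304, minus strand: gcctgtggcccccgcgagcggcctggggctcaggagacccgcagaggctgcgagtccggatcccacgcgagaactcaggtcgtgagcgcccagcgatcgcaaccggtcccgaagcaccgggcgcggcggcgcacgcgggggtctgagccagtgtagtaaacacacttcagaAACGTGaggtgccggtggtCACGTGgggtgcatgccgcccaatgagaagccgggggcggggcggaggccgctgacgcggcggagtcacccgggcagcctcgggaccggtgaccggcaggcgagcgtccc
Per3 promoter, chr4:151044616-151044915, minus strand: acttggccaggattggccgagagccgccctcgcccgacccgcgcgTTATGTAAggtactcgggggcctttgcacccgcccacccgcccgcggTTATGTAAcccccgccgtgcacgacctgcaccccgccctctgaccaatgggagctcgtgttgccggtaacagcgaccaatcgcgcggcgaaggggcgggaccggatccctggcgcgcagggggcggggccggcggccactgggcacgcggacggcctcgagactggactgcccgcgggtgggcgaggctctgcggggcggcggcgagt

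These promoters differed in which clock element they held. Per1 and Cry1 held the E-box, with its first base 166 and 60 bases before the start, and 7.15% of all 32851 RefSeq promoters of this length held it. The variant CACGTT lay 28 bases before the start of Nr1d1, 79 before that of Cry1 and 166 before that of Cry2, and 4.68% of all promoters had it. Per3 held the D-box TTATGTAA at 2 places, 205 and 158 bases before its start, where 0.938% of all promoters held it at least once. TAGGTCA was found in Nfil3, 12 bases before the start, and in 2.61% of all promoters. None of the 9 member promoters, of which Per1 has 2, held TTACGTAA or TGGGTCA, which 0.119% and 3.98% of all promoters did, nor the cAMP response element TGACGTCA (1.79%). Its core TGACG, which is part of that element, was found in Per1, Cry1, Cry2 and Nfil3 (20.8% of all promoters). The promoters of Nr1d2 and Dbp, printed without capitals, held none of the marked elements. The GC box GGGCGG, to which SP and Kruppel-like factors bind, was found in every matched member except Nr1d1. That was 7 of 8 genes and 8 of 9 promoters, against 35.7% of all promoters. The GC content of the 9 ran from 56.3% (Nr1d1) to 81.7% (Nfil3), against a median of 52.7% over all promoters. The shares were not adjusted for it. A match says only that these letters stand in the window.

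Peaks lay within 2 kb of a start or a gene end in each of the 7 genes that had any. All 7 had a summit within 2 kb of a RefSeq start or, for Per2 and Bhlhe40, of a gene end, against 4.73% of all protein-coding genes by the same rule. Within the 50 kb window the count was 7 of 10 against 24.9% of all protein-coding genes. The peaks chose these genes, so neither count is support for a preference. Of the 6 summits within 2 kb of a RefSeq start of their own member gene, 4 lay before that start. None lay within 250 bp of it, and the median distance was 507 bp. Over the whole list, 797 summits lay within 2 kb of the nearest RefSeq start of any protein-coding gene. Their median distance was 196 bp, and 58.8% of them lay within 250 bp. The 2 sets of distances are not alike, since starts of neighbouring genes count only in the second. The 6 also leave out Per2 and Bhlhe40, which had no matched start, and the Per2 summit lay 77 bp outside a gene end. For Per1 and Nfil3 the matched starts lie inside the annotated gene, and another Per1 summit lay 276 bp outside that gene. A tendency of these peaks to lie away from starts was therefore not shown.

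The fold given for a peak is the authors' value at its summit, the ChIP fragments plus 1 over the background fragments plus 1, with the background taken from the input. Each interval is the exact 95% Poisson interval of the ChIP fragments at a fixed background and allows for counting error alone. The steps in the backgrounds put the sequencing depth of the ChIP below that of the input, by an estimate of 2.31 times. That estimate rests on a step of which 66.5% of the backgrounds were whole multiples. The 23 summits had a median fold of 4.36 (range 2.85 to 9.89), against 4.45 for the other 3715 peaks. They carried a median of 36 ChIP fragments (20 to 85) over a background of 7.02, where the other peaks carried 30 over 6.05. Of the 23, 11 were at or above the median fold of the list and 8 at or above its 75th percentile of 5.75. The 6 summits within 500 bp of a tRNA gene, all in the Per1 window, had a median fold of 7.53. The other 17 had a median of 4.35 and a 75th percentile of 4.98, below that of the list.

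**Figure D1:**
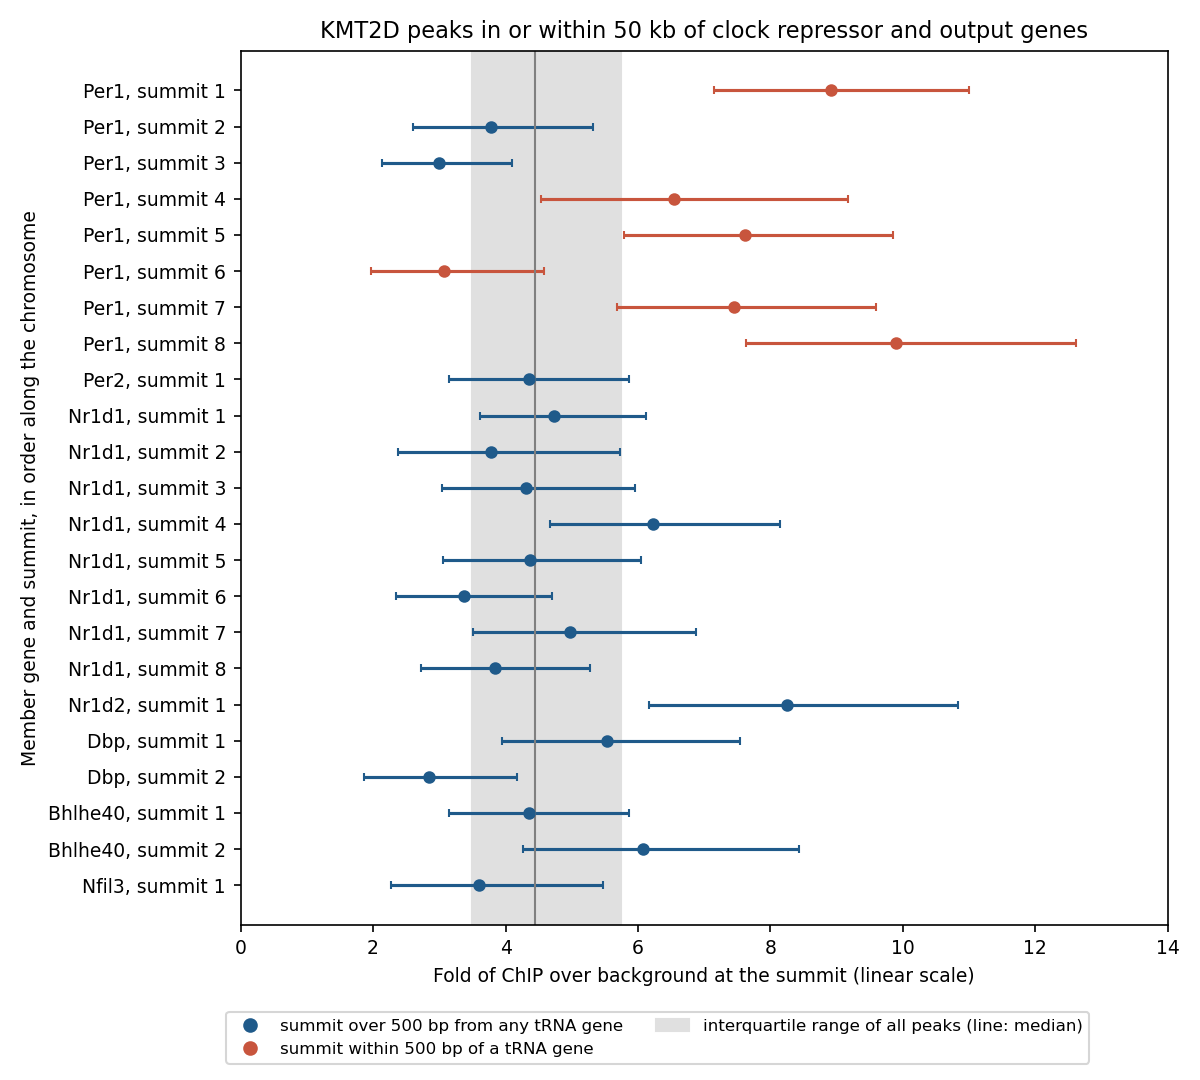
Fold of ChIP over background (linear axis) of each of the 23 summits, by gene and in order along the chromosome, with exact 95% Poisson intervals. The grey band is the interquartile range of all peaks and the line their median of 4.45. Nr1d2 is the highest of the summits far from tRNA genes, and 5 of the 6 Per1 summits near tRNA genes lie at 6.55 or above.

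The PER genes encode the rhythmic repressors whose levels set the phase of the clock. Per1 (chromosome 11: 69095108 to 69109965) had 8 summits in its window, of which 6 lay within 500 bp of a tRNA gene. In the whole list 2.86% of summits did so. Only 2 of the 8 were both nearest to Per1 and away from tRNA genes. The peak from 69094746 to 69094967 had a fold of 3.78 (interval 2.61 to 5.32), with 31 ChIP fragments over a background of 7.46. Its summit was 276 bp outside the annotated gene and 4117 bp before the nearest RefSeq start with a promoter sequence. The next peak, from 69096985 to 69097228, had a fold of 2.998 (2.13 to 4.10), with 37 ChIP fragments over 11.7, and its summit lay inside the annotated gene, 1798 bp before that start. Both folds were below the median of the list, and their intervals overlapped. The E-box promoter printed above was 1471 bp from the nearer peak.

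The other Per1 summits followed a cluster of tRNA genes around it. The window held 11 tRNA genes, and 10 of them had a summit within 500 bp, where 136 of all 403 tRNA genes did. In 5 cases the summit lay inside the tRNA gene. The highest was at n-TKctt27, a lysine tRNA gene, with a fold of 9.89 (7.64 to 12.6) and 63 ChIP fragments, the background being 5.47. At n-TSgct3, a serine tRNA gene, the fold was 8.91 (7.14 to 11.0), with 85 fragments over 8.65. A glycine tRNA gene, n-TGgcc5, had 7.61 (5.78 to 9.85) and a leucine tRNA gene, n-TLtag3, 7.45 (5.69 to 9.60). The summit nearest to Per1 among these lay in the serine tRNA gene n-TScga3, 965 bp past the end of Per1, with a fold of 6.55 (4.54 to 9.17). The sixth, 246 bp from n-TRtct4, had only 22 ChIP fragments and a fold of 3.07 (1.98 to 4.58). The median fold of the 6 was 7.53, near the 7.56 of all 106 peaks within 500 bp of a tRNA gene. Without summits within 500 bp of a tRNA gene, the highest fold in the Per1 window was 3.78 in place of 9.89. The protein-coding genes Borcs6, Hes7 and Aloxe3 were nearer than Per1 to 5 of these 6 summits.

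Per2 (chromosome 1: 91415977 to 91459351) had a single summit, 77 bp outside an end of the gene. The peak spanned 91459233 to 91459593 and had a fold of 4.35 (3.15 to 5.87), with 41 ChIP fragments over a background of 8.65. No other protein-coding gene was nearer to it. Per3 (chromosome 4: 150997018 to 151044707), the third PER gene, had no summit in its window, and the nearest was 159369 bp away. The list holds only peaks past the authors' threshold, so Per3 had no called peak, which does not show that KMT2D was absent there.

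Neither CRY gene had a called peak. The cryptochromes are the main direct repressors of CLOCK and BMAL1. For Cry1 (chromosome 10: 85131700 to 85185054) the nearest summit was 554707 bp away, and for Cry2 (chromosome 2: 92403646 to 92434085) it was 308182 bp away. Their promoters were not poor in CpG. The ratio of observed to expected CpG was 0.979 in Cry1, 0.826 in Cry2 and 1.02 in Per3, against a median of 0.384 (interquartile range 0.176 to 0.7498) over all RefSeq promoters. Among the matched genes with a peak it was 0.404 in Nr1d1, 0.536 and 0.675 at the Per1 starts, 0.665 in Dbp, 0.806 in Nr1d2 and 1.10 in Nfil3. The 3 genes with no peak had values above those of the matched genes with a peak, other than Nfil3. Cry2 (0.826) stood close to Nr1d2 (0.806), and Per2 and Bhlhe40 had no matched promoter. A link between CpG and peaks was not tested.

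**Figure D2:**
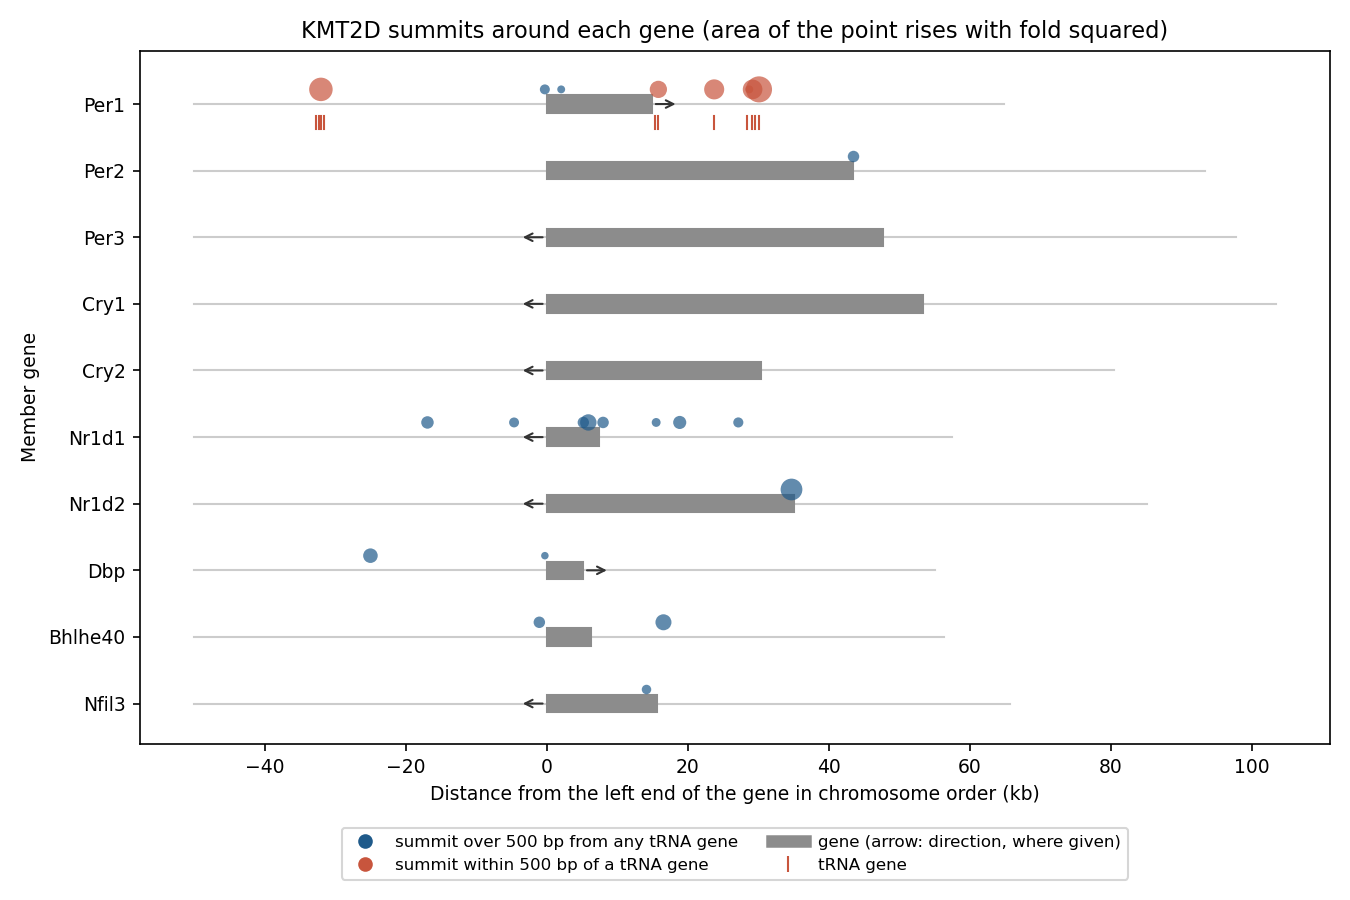
Summits around each of the 10 genes, by distance in kb from the left end of the gene in chromosome order, with the area of a point rising with the square of its fold. Grey bars are genes, thin lines the window of 50 kb on each side, arrows the direction where given, and red ticks tRNA genes. Of the 8 Per1 summits, 6 lie at tRNA ticks, Nr1d1 has summits on both sides of the gene, and Per3, Cry1 and Cry2 have none.

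Of the REV-ERB genes, Nr1d1 had 8 summits in its window, 4 of them nearest to Thra or Msl1, and Nr1d2 had 1, with the highest fold of the 17 summits over 500 bp from a tRNA gene. Nr1d2 (chromosome 14: 18204056 to 18239106) had its summit at a fold of 8.25 (6.17 to 10.8), 50 ChIP fragments over a background of 5.18. Its fold ranked 247 in the whole list, above 93.4% of peaks. The peak spanned 18238481 to 18238963, its summit lay inside the gene, 479 bp after the start, and its edge was 94 bp from the promoter window printed above. The next summit outside the 50 kb window was 1176761 bp away.

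Nr1d1 (chromosome 11: 98767932 to 98775377) had 8 summits spread over 44077 bp, none of them near a tRNA gene. A window with 8 or more summits was found for 0.0735% of protein-coding genes, and for 0.0551% when summits nearer a small RNA gene than a protein-coding gene were left out. The cut of 8 was the count of Nr1d1 itself, a gene chosen with its peaks known, so these shares are description only. The Nr1d1 summits also counted for neighbours, since Thra, which encodes a thyroid hormone receptor, and Msl1 also had 8 in their windows. The strongest, from 98773703 to 98774136, lay inside Nr1d1, 1555 bp after the start, with a fold of 6.23 (4.67 to 8.15) and 51 ChIP fragments over 7.35. At 710 bp from it, and also inside the gene, the peak from 98772707 to 98773215 had a fold of 4.31 (3.04 to 5.95). Before the start, the peak from 98775862 to 98776192 had a fold of 4.36 (3.06 to 6.05), with its summit at 535 bp, inside the long non-coding RNA gene Gm31862. All 3 intervals overlapped.

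The other 5 summits of the Nr1d1 window lay farther out. A peak 8064 bp before the start, also inside Gm31862, had a fold of 3.37 (2.35 to 4.70), and a peak at 11404 bp, nearer to Msl1, 4.98 (3.51 to 6.87). Inside Msl1, 19712 bp before the start of Nr1d1, the fold was 3.84 (2.72 to 5.27). On the other side a pair of summits lay inside Thra, whose annotated end overlaps that of Nr1d1. The nearer one, 4640 bp past the end of Nr1d1, had a fold of 3.77 (2.38 to 5.73) and 20 ChIP fragments. The farther one had 57 ChIP fragments over a background of 11.2, a fold of 4.74 (3.61 to 6.11) and a width of 737 bp, above 96.5% of the list. For 4 of the 8 summits Nr1d1 was the nearest protein-coding gene, and 0.565% of protein-coding genes were nearest to 4 or more summits. That cut was again the count of Nr1d1 itself.

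**Figure D3:**
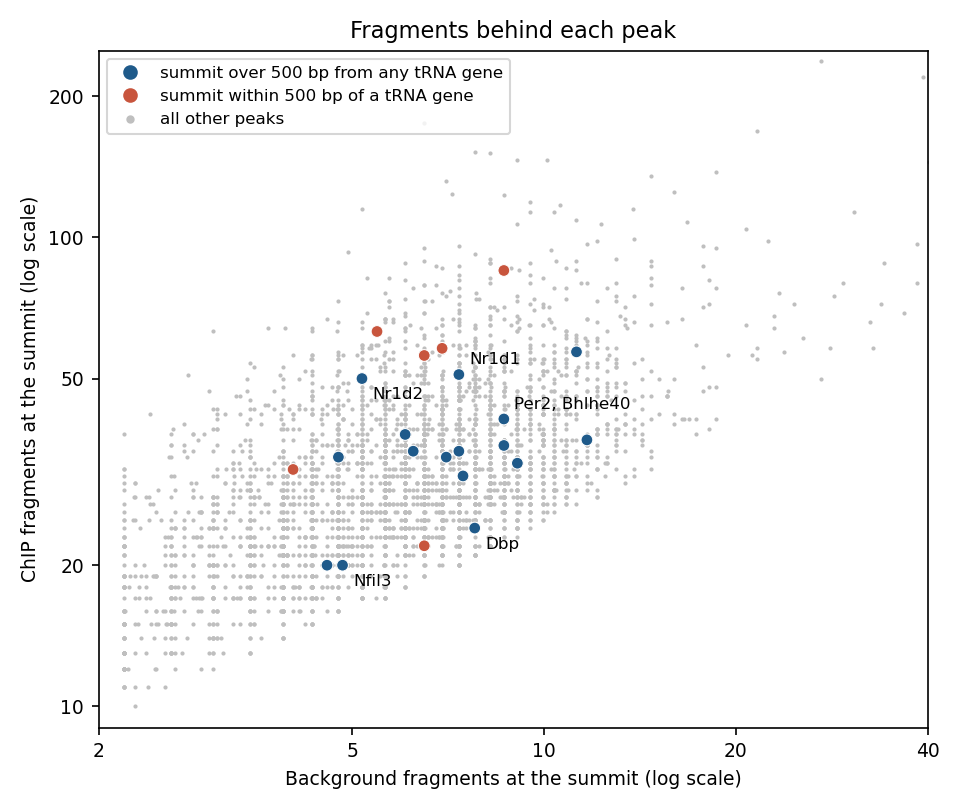
ChIP fragments against background fragments at solved summits (both axes logarithmic), for the 23 summits (blue, or red within 500 bp of a tRNA gene) and the other peaks (grey). Other peaks with values above the upper end of either axis are not shown. Per2 and the peak beside Bhlhe40 fall on the same point, 41 over 8.65, and the labelled Dbp point is the peak beside its start, 24 over 7.78.

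Of the output genes, Bhlhe40 and Dbp each had a peak beside the gene and a peak of higher fold farther away, with overlapping intervals in both cases. Bhlhe40 (chromosome 6: 108660629 to 108666925), a repressor also induced by oxygen shortage and other stresses, had a peak from 108659395 to 108660416, with the summit 1058 bp outside the gene and inside the long non-coding RNA gene 0610040F04Rik. Here 41 ChIP fragments stood over a background of 8.65, a fold of 4.35 (3.15 to 5.87), the same values as at Per2. At 1022 bp it was the widest of the 23 peaks and wider than 99.1% of the list. A narrower peak of 244 bp, from 108677035 to 108677278 and 10247 bp outside the other end of the gene, had a fold of 6.08 (4.26 to 8.43), with 34 fragments over 4.76. No other protein-coding gene reached into the Bhlhe40 window, so both could be given to it by distance.

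Dbp (chromosome 7: 45705100 to 45710203), an activator of D-box genes in liver and other tissues, had the lowest fold of the 23 summits beside its start. That peak spanned 45704799 to 45705073, with its summit 418 bp before the RefSeq start, and covered 77 bases of the promoter printed above. The fold was 2.85 (1.86 to 4.18), with 24 ChIP fragments over a background of 7.78, and the −log10 q of 2.70 was the lowest of the 23. The neighbouring gene Car11, a carbonic anhydrase relative, was nearer to this summit (142 bp) than Dbp (271 bp). A stronger peak lay 25007 bp outside Dbp, inside Sec1, with a fold of 5.53 (3.95 to 7.54). Within 20 kb the highest fold for Dbp was therefore 2.85.

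Nfil3 (chromosome 13: 52967209 to 52982878), a repressor that competes with DBP at D-boxes, had a single peak from 52981274 to 52981605. Its summit lay inside the annotated gene and 274 bp before the RefSeq start with a promoter sequence, and the peak covered 16 bases of that promoter. The fold was 3.60 (2.27 to 5.47), from 20 ChIP fragments over a background of 4.83, and no other protein-coding gene was nearer. The printed Nfil3 promoter was the richest in CpG of the 9, with 54 CpG in 300 bases.

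**Figure D4:**
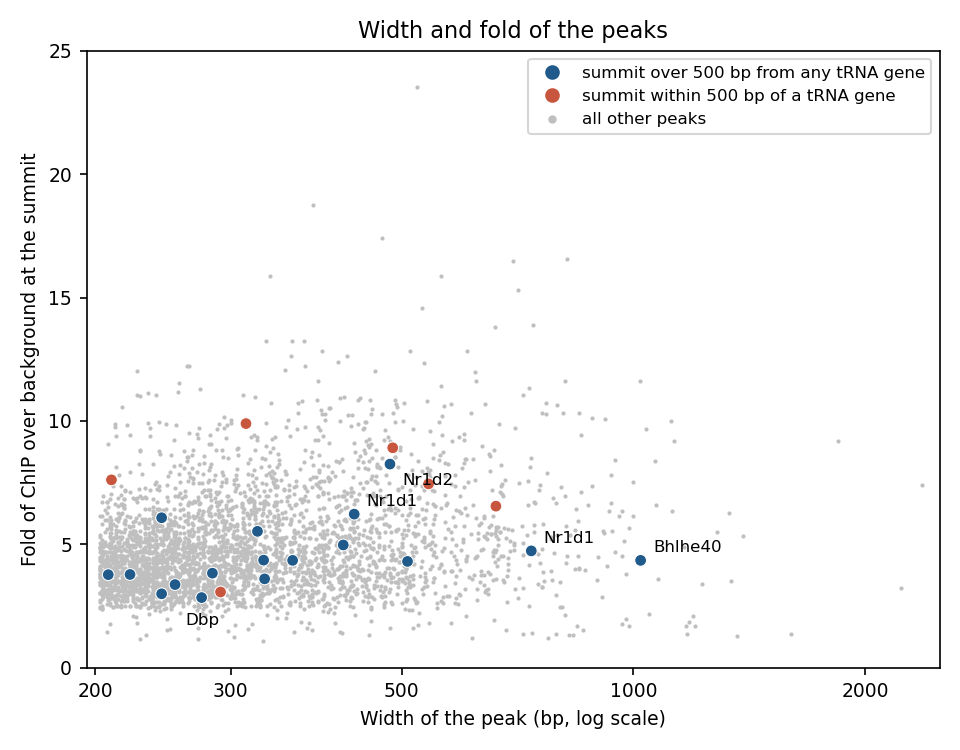
Width in bp (log axis) against fold of ChIP over background (linear axis) for the 23 peaks (blue, or red within 500 bp of a tRNA gene) and all other peaks (grey). The peak beside Bhlhe40 is 1022 bp wide at a fold of 4.35, Nr1d2 is 483 bp wide at 8.25, and the peak beside Dbp has a fold of 2.85.

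Ordered by their highest summit away from tRNA genes, the 7 genes were Nr1d2 (fold 8.25), Nr1d1 (6.23), Bhlhe40 (6.08), Dbp (5.53), Per2 (4.35), Per1 (3.78) and Nfil3 (3.60). Every pair of neighbours in that order had overlapping intervals. The interval of Nr1d2, from 6.17, lay above those of Per2, Per1 and Nfil3, which reached 5.87, 5.32 and 5.47. These intervals allow for counting error alone, and the genes were chosen and ordered with the same folds known. A difference between the genes was not tested. At the edge of the 50 kb window, the farthest summit counted was that at n-TSgct3, 32030 bp outside Per1 (fold 8.91), and the nearest one not counted was 53263 bp outside Per1 (fold 6.65). For the other 9 genes the nearest summit beyond the window was 63431 bp away or more.

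Other genes of the clock were read by the same rules. In a list of 18, namely Clock, Arntl, Arntl2, Npas2, Rora, Rorb, Bhlhe41, Tef, Hlf, Ciart, Csnk1d, Csnk1e, Fbxl21, Btrc, Fbxw11, Timeless, Usp2 and Nampt, 7 had a summit inside or within 50 kb, against 24.9% of all protein-coding genes. A summit within 2 kb of a start was found for 1 of the 18, Tef, against 4.73%. Tef encodes a D-box activator related to DBP. Its peak, from 81810693 to 81811197 on chromosome 15, had a summit 391 bp before a RefSeq start and a fold of 3.87 (2.91 to 5.03), with 53 ChIP fragments over a background of 12.97. Arntl, the target of the REV-ERB proteins, had 3 summits in its window, with folds of 5.21, 4.55 and 5.82. All lay over 20 kb from its RefSeq starts with a promoter sequence. Measured from the annotated end at which this plus-strand gene begins, they lay 26723 bp outside, 5834 bp outside and 7748 bp inside. The strongest of them lay inside the annotated gene, from 113185845 to 113186318 on chromosome 7 (interval 4.10 to 8.03). Hlf, another D-box activator, had a summit inside the gene, 35427 bp after the start, with a fold of 3.64 (2.51 to 5.12). The other 2 summits in the Tef window, with folds of 4.39 and 6.49, lay nearest to Tob2. The summits in the windows of Rorb, Csnk1e, Fbxl21 and Timeless were each nearer to another protein-coding gene, among them Trpm6 and Tmem184b. The other 11 genes, Clock itself included, had no summit in their windows. The 13 summits of the 18 genes had a median fold of 5.21.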

How the data were processed

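ChIP and input libraries of wild-type HT22 cells were represented by 1 peak list. Per the labels' protocols, chromatin was sonicated and sequencing libraries came from a NEBNext kit. Bowtie2, Picard, MACS2 and build mm10 are listed in the submitters' processing notes. Their versions and settings are not given in the sources used. The deposited fold, a ratio of ChIP over background, is the value the authors' peak caller gave at each summit. The deposited −log10 p and −log10 q are also the authors' values, and the lowest −log10 q was 1.32. The deposited score, which is −log10 q times 10 without its decimals, was left aside.

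ChIP and background fragments were solved from fold and p on the assumption that they follow the formulas of MACS2, with a tolerance of 0.001 in −log10 p, for 3694 of 3738 peaks (98.8%) and all 23 summits of the clock genes. PCR reads are not independent molecules, so intervals cover counting error only. Gene positions and promoters came from RefSeq tables of GRCm38.p6, the build of mm10, with 49595 of 49997 genes kept on main chromosome sequences. Starts were available for 17492 of 21774 protein-coding genes, and gene ends were used for the rest. Exons were not used. The computation ran in Python 3.11.15 with scipy 1.17.1, and the solver was tested on simulated data. No test between groups was possible with 1 library of each kind. Named genes are the 10 members, a list of 18 other clock genes (some planned genes are not reported here) and the genes nearest to their summits; members and lists were chosen with earlier results of these data known. Positions count from 1.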

Additional observations from a re-analysis of the deposited data

How the results depend on the processing

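The count of 7 genes with a summit in the window was also 7 when whole peak intervals replaced summits, with windows of 20 kb and 100 kb, and without summits near tRNA or other small RNA genes or with backgrounds of 20 fragments or more. With the peaks kept whose −log10 q reached the median, it was 6, with 15 summits, and 4 genes (Per2, Nr1d1, Nr1d2 and Bhlhe40) had a summit at a start or end in place of 7. With a fold in the upper quartile, from the 75th percentile, it was 4, with 8 summits, 2 genes with a summit at the start (Nr1d1 and Nr1d2), a median fold of 7.53 in place of 4.36, and 4 other clock genes in place of 7. These lists hold fewer peaks by construction. Giving each summit to its nearest protein-coding gene left 12 summits of 23, and 3 other clock genes, and Dbp then had none. Within 20 kb, 3 other clock genes had a summit. With 1 kb in place of 2 kb at a start or end, 5 genes had a summit there in place of 7. The highest fold of a gene left its own interval in 4 of 58 alternative values: Per1 at 3.78 without summits nearer a small RNA gene and at 3.78 without those within 500 bp of a tRNA gene, 6.55 with the nearest gene only, and Dbp at 2.85 within 20 kb. A filter on fold keeps the highest fold of a gene or drops the gene, so those values could not move. Genes dropped by a setting are not among the 58, so this share is no measure of stability. Leaving out summits within 500 bp of a tRNA gene, and measuring from either end in place of the start, were chosen after the data were seen. No paired analysis was possible because there was 1 library of each kind.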

Other observations

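The stretch of chromosome 11 around Per1 also held the window with the most summits outside chromosome 6. Vamp2, which encodes a synaptic vesicle protein, had 11 summits in its window, Tmem107 had 9 and Borcs6 had 8. Without summits nearer a small RNA gene these counts were 3, 2 and 2, and that of Per1 was 3 of 8, while Nr1d1, Thra and Msl1 had 8 each in both counts. Socs3 and Dlx3, on the same chromosome, also had 8 in both. These neighbours were picked for their counts. Among the other clock genes, the highest fold was 10.2 (interval 7.32 to 13.96), 47492 bp outside Timeless and 4274 bp from Rbms2.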
